A study of Mus musculus with 11 samples.

Results

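Heme is made from glycine and succinyl-CoA along a chain of enzymes that begins and ends in the mitochondrion. The genes described here are 9 of the 36788 gene identifiers in the deposited table: 7 enzymes of that chain (Alas1, Alad, Uros, Urod, Cpox, Ppox and Fech), Clpx, whose product acts on the first enzyme, and Hmox1, which breaks heme down. They were picked by symbol with the difference between the treatment groups already in view, so every comparison of their levels between the groups is a description and carries no test. The rule set no threshold. Liver RNA came from wild-type C57BL/6 female mice over 12 weeks of age, all of them ovariectomized and all fed a high-fat diet. The FSH group (follicle-stimulating hormone, mice 1, 2, 3, 4 and 6) received the hormone by daily injection and the control group (mice 1 to 6) received saline, which gives 5 and 6 livers. No group with intact ovaries or on a normal diet was analysed here. The libraries are bulk RNA from whole liver that the labels describe as treated with papain, so fewer cells of a type and less RNA per cell cannot be told apart. The labels number the samples but do not tie a number to an animal, and p-values therefore measure the spread between these samples.

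ALAS1 makes 5-aminolevulinic acid and sets the pace of heme synthesis in the hepatocyte, where most heme goes into cytochromes P450. Heme in turn holds the enzyme down, at its RNA, at its import and through its degradation. CLPX is an unfoldase of the mitochondrial matrix that helps load the cofactor pyridoxal phosphate onto ALAS and, with the protease CLPP, takes part in the heme-dependent removal of ALAS1. HMOX1, the inducible heme oxygenase, opens the heme ring to give biliverdin, iron and carbon monoxide, and in the liver it is prominent in macrophages that clear red cells.

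The sequences just before the starts of Clpx and Alas1 are shown because these genes had the largest differences between the groups and because their promoter windows shared 1 of the 8 motifs searched, which the choice of genes had not used. RefSeq windows of 300 bases (250 before to 50 after a start, GRCm38.p6) were found for 7 of the 9 genes, in 10 windows, and none was matched for Fech or Hmox1. The letters GCGCATGC on either strand, the core bound by nuclear respiratory factor 1 (NRF1, a regulator of nuclear genes for mitochondrial proteins), stood in the windows of Clpx and Alas1 and in 891 of all 32851 windows (2.71%). In the 250 bases before Clpx (chr9:65294010-65294259, plus strand, 58.8% G or C) the motif, in capitals, began 86 bases before the start.
Clpx: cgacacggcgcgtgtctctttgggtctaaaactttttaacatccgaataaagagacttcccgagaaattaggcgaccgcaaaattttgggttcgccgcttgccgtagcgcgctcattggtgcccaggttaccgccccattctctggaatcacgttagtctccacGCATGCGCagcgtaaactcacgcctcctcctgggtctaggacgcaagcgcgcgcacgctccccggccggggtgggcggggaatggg
In Alas1, whose RefSeq models have 2 starts close together, the same letters began 193 bases before the downstream start and lay just inside the transcript that begins upstream. They overlap a second copy read from the other strand. The stretch is chr9:106247905-106247934, minus strand.
Alas1: gcacccaaggcGCATGCGCggcggtcactc

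A second motif is shown because it is the site of the clock proteins CLOCK, NPAS2 and BMAL1, whose genes differed between these livers. The E-box CACGTG reads the same on both strands and was found in 7.15% of all windows. It stood in the windows of Alad, Urod and Uros, in capitals below, and in none of those of Clpx and Alas1. Alad has 2 listed starts, and 1 E-box began 105 bases before the upstream start (chr4:62520150-62520179, minus strand) and another 28 bases before the downstream start (chr4:62519919-62519948, minus strand). In Urod it began 49 bases before the start (chr4:116994444-116994473, minus strand). In Uros it was the outermost 6 bases of the window, 250 bases before the start (chr7:133709516-133709545, minus strand).
Alad, far: ctccgaatgccCACGTGgaccccctcgggc
Alad, near: cgccccgccccCACGTGggcttgcgctttt
Urod: actggatcggtCACGTGgttctcaatatgg
Uros: CACGTGtgctttctcacctcgtccacgatt
The D-box TTANGTAA (2.32% of all windows), the ROR element (0.219%), the antioxidant response element TGACNNNGC (12.4%), the FOXO motif GTAAACA (3.65%) and the palindromic glucocorticoid response element (0.00913%) were in none of the 10 windows on either strand. The short CCAAT box, in 37.4% of all windows, stood in those of Ppox, Alad, Urod and Clpx. A match describes these letters only, and the absence of a match says only that they are not within these 300 bases.

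Clpx (chr9:65294260-65330658, plus strand, GRCm38) was lower in every FSH liver than in every saline liver. Levels are in CPM, reads per 1000000 reads of the library. They were 68.7, 78.7, 95.3, 83.8 and 96.5 CPM in FSH mice 1, 2, 3, 4 and 6, and 259.3, 371.9, 276.6, 326.4, 298.3 and 367.9 CPM in saline mice 1 to 6. The highest FSH liver thus lay well under the lowest saline liver, and the groups did not overlap. The FSH mean was 84.6 ± 11.7 CPM (SD, n = 5) and the saline mean 316.7 ± 46.9 CPM (SD, n = 6), so the FSH livers held 26.7% of the saline level, or 3.74-fold less. On the scale of log2(CPM + 0.5) the difference, FSH minus saline, was -1.90 (SE 0.12). Only 16 of the 12733 genes with enough reads to test (0.126%) were as low or lower on that scale.

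Alas1 (chr9:106233455-106248654, minus strand) had the higher mean with FSH, with wide spread and overlapping groups. Its levels were 283.7, 418.4, 378.4, 594.3 and 657.6 CPM in FSH mice 1, 2, 3, 4 and 6, and 398.0, 414.8, 303.2, 317.8, 114.4 and 197.0 CPM in saline mice 1 to 6. FSH mice 2, 4 and 6 lay above all saline livers, FSH mouse 1 lay below the 4 highest of them, and saline mice 5 and 6 were the lowest of all. The FSH mean was 466.5 ± 155.2 CPM (SD, n = 5) and the saline mean 290.9 ± 116.3 CPM (SD, n = 6), a log2 difference of 0.74 (SE 0.30). The highest of the 11 livers held 5.75 times the level of the lowest, and no other of the 9 genes differed as much among livers of the same group. Without single livers the log2 difference ranged from 0.50 to 0.90.

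Set against each other per kilobase of the principal transcript, the first enzyme and its chaperone changed places. The ratio of Alas1 to Clpx in CPM per kb was 3.51, 4.51, 3.37, 6.02 and 5.78 in FSH mice 1, 2, 3, 4 and 6. In saline mice 1 to 6 it was 1.30, 0.947, 0.930, 0.826, 0.326 and 0.455. The mean ratio was 4.64 ± 1.24 (SD, n = 5) with FSH and 0.798 ± 0.357 (SD, n = 6) with saline, and the lowest FSH ratio was above the highest saline ratio. Only saline mouse 1 among the controls had more Alas1 than Clpx per kb.

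**Figure D1:**
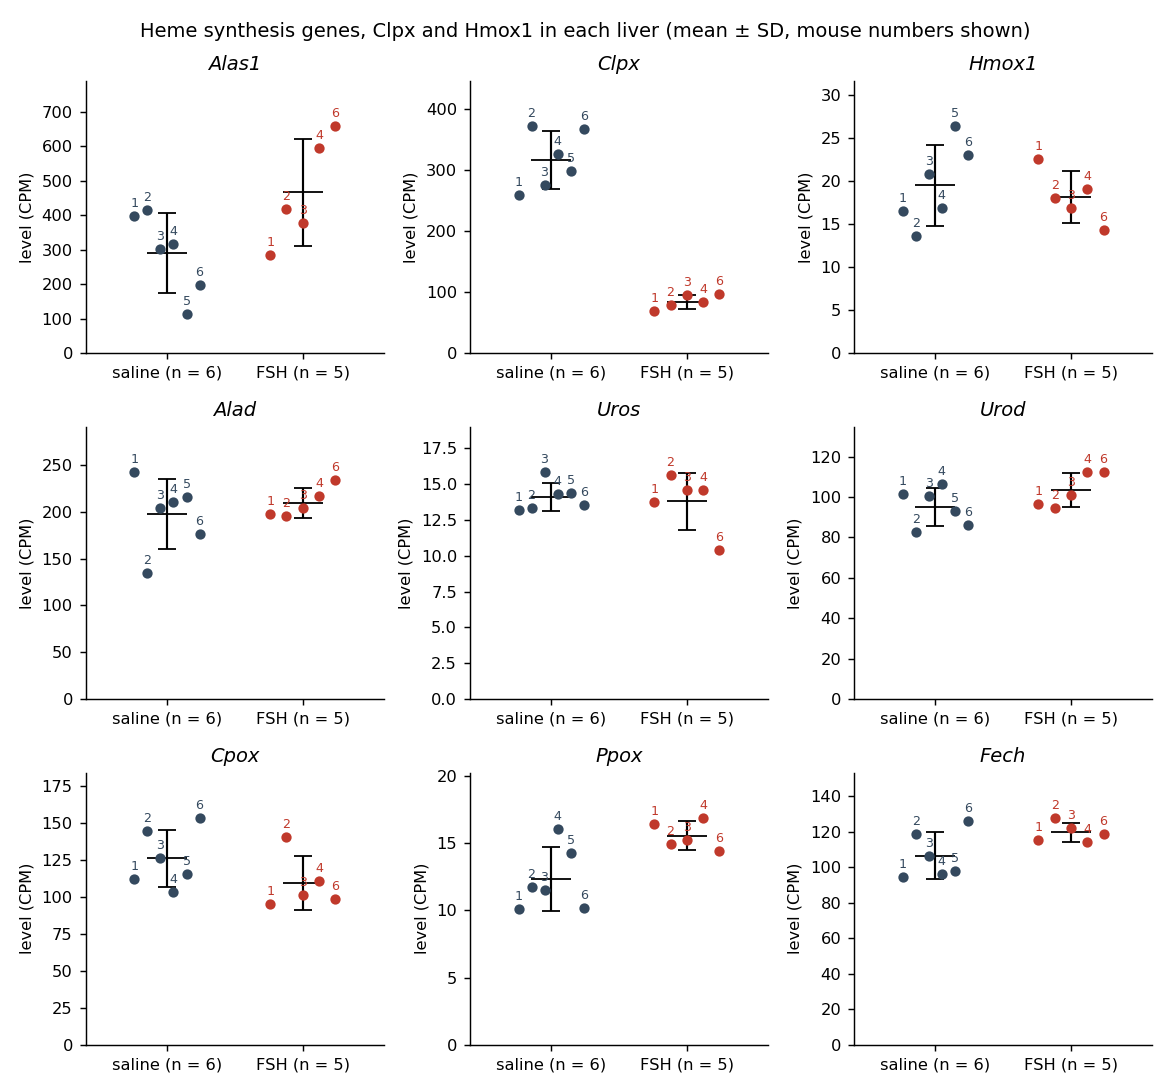
Levels in CPM (vertical axes, linear from 0) of the 9 genes in each saline (dark, n = 6) and FSH (red, n = 5) liver, with the mouse number over each point and black marks for the mean ± SD. Clpx is the gene whose groups do not overlap, at 68.7 to 96.5 CPM with FSH and 259.3 to 371.9 CPM with saline, and Alas1 spans 114.4 to 657.6 CPM.

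Each enzyme that follows ALAS1 overlapped in level between FSH and saline livers. ALAD joins 2 molecules of aminolevulinic acid into porphobilinogen, and its gene (chr4:62509169-62519918, minus strand) read 197.8, 195.1, 204.3, 216.8 and 233.5 CPM with FSH against 242.3, 135.1, 204.1, 210.5, 216.2 and 176.6 CPM with saline. All 5 FSH livers lay inside the saline range, and the means were 209.5 ± 15.8 (SD, n = 5) and 197.5 ± 37.1 CPM (SD, n = 6), a log2 difference of 0.11 (SE 0.13). UROS closes the porphyrin ring. Its gene (chr7:133686243-133710072, minus strand) was at 13.8, 15.6, 14.6, 14.6 and 10.4 CPM with FSH and at 13.2, 13.3, 15.8, 14.3, 14.3 and 13.6 CPM with saline. FSH mouse 6 was the lowest of the 11, and the log2 difference was -0.04 (SE 0.11). Uros shares sequence with Bccip on the opposite strand, at a mean of 75.4 CPM with FSH and 72.3 CPM with saline, and the use of strand in counting is not given in the sources used here, so part of its low count could belong to that neighbor.

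UROD trims the side chains of uroporphyrinogen. Urod (chr4:116989965-116994413, minus strand) ran from 94.4 to 112.3 CPM with FSH and from 82.5 to 106.4 CPM with saline, with means of 103.3 ± 8.44 (SD, n = 5) and 95.02 ± 9.35 CPM (SD, n = 6) and a log2 difference of 0.12 (SE 0.09). FSH mice 4 and 6 were above every saline liver. CPOX and PPOX carry out the oxidation steps that lead to protoporphyrin. Cpox (chr16:58670292-58717636, plus strand) was at 95.5, 140.8, 101.7, 111.0 and 98.7 CPM with FSH and at 112.3, 145.0, 126.6, 103.6, 115.7 and 153.5 CPM with saline. Its mean was the lower one with FSH, 109.5 ± 18.4 CPM (SD, n = 5) against 126.1 ± 19.5 CPM (SD, n = 6), a log2 difference of -0.20 (SE 0.12), and the ranges overlapped over most of their length.

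Ppox (chr1:171275990-171281186, minus strand) had the largest difference of the 6 enzymes after ALAS1. It read 16.4, 14.9, 15.2, 16.9 and 14.4 CPM with FSH and 10.1, 11.7, 11.5, 16.1, 14.3 and 10.1 CPM with saline. Saline mouse 4 lay among the FSH livers and the other saline livers lay below them, with means of 15.6 ± 1.05 (SD, n = 5) and 12.3 ± 2.38 CPM (SD, n = 6) and a log2 difference of 0.34 (SE 0.12). B4galt3 overlaps it on the opposite strand at 9.58 and 9.79 CPM in the FSH and saline groups. FECH inserts iron into protoporphyrin to complete heme. Fech (chr18:64452914-64490251, minus strand) was at 115.6, 127.8, 122.4, 114.4 and 118.7 CPM with FSH and at 94.5, 118.7, 106.3, 96.1, 98.2 and 126.3 CPM with saline. Saline mice 2 and 6 reached the FSH range, and the log2 difference was 0.17 (SE 0.09).

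Hmox1 (chr8:75093621-75100589, plus strand), the enzyme of heme breakdown, overlapped almost entirely between the groups. It was at 22.6, 18.1, 16.9, 19.1 and 14.4 CPM in FSH mice 1, 2, 3, 4 and 6, and at 16.5, 13.6, 20.8, 16.9, 26.4 and 23.0 CPM in saline mice 1 to 6. The means were 18.2 ± 3.01 CPM (SD, n = 5) and 19.5 ± 4.73 CPM (SD, n = 6), a log2 difference of -0.08 (SE 0.16). Saline mice 5 and 6, the livers lowest in Alas1, were the highest in Hmox1, and FSH mouse 6, the liver highest in Alas1, was the lowest in Hmox1 among the FSH livers. All 8 markers of Kupffer cells and macrophages had a lower mean with FSH, and Cd68 (log2 difference -0.78, adjusted p = 0.0118, limma with Benjamini-Hochberg adjustment) passed the test. Their summed level ran from 111 to 304 CPM with FSH and from 182 to 360 CPM with saline, none was at 0 in every liver, and their part in the Hmox1 level was not tested.

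Of the 9 genes, all of which had enough reads to be tested, 5 had a higher and 4 a lower mean with FSH, and the median log2 difference was 0.106 against 0.0236 over all 12733 genes tested. At an adjusted p under 0.05 the count of the 9 that were called was 1, Clpx, against 10.6% of all genes tested in either direction, 4.41% lower and 6.19% higher with FSH. Clpx was also past a log2 difference of 1 in size, as were 1.83% of all genes, 0.942% lower and 0.887% higher. Groups that did not overlap were found for 1 of the 9, again Clpx, against 6.67% of all genes, 2.72% lower and 3.95% higher. The choice of the genes used this contrast, so nothing is read from these counts. For 7 of the 9 the log2 difference was within 0.35 of no change in size, as it was for 79.9% of all genes. The 6 enzymes after ALAS1 had a median of 0.114, with 4 higher and 2 lower.

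**Figure D2:**
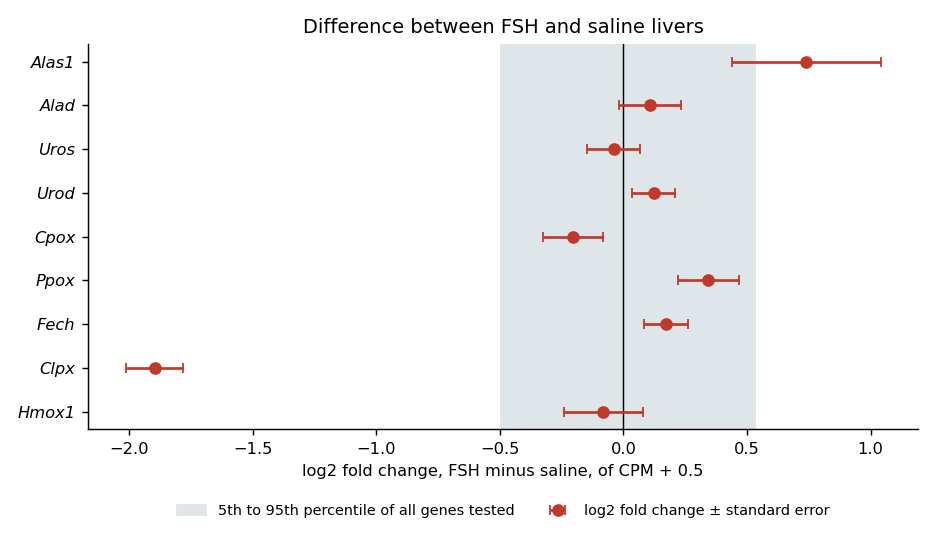
Log2 difference between FSH and saline livers for the 9 genes (points, with bars of 1 standard error, horizontal axis on the scale of log2(CPM + 0.5)) over the range of the middle 90% of all 12733 genes tested (grey band, -0.49 to 0.53). Clpx at -1.90 and Alas1 at 0.74 are outside the band and the other 7 genes are inside it.

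Per kilobase of principal transcript, the saline livers held the genes in the order Alad (158.3 CPM per kb), Clpx (109.8), Alas1 (85.6), Urod (63.8), Cpox (40.7), Fech (16.2), Hmox1 (12.5), Uros (8.00) and Ppox (6.76). Neighbors in that order overlapped among livers from Alad down to Urod and again from Fech down to Ppox, while Urod and Cpox, and Cpox and Fech, did not. In the FSH livers Clpx stood at rank 5, with 29.3 CPM per kb, below Cpox at 35.4 CPM per kb, and Alas1 at rank 2, with 137.2 CPM per kb, below Alad at 168.0 CPM per kb. The ranges of Alad and Alas1, of Cpox and Clpx, of Hmox1 and Ppox and of Ppox and Uros overlapped there. Between 119 reads (Uros) and 9202 reads (Alas1) lay behind each value in a library.

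The genes nearest in role did not pass the test. Alas2, the erythroid form of the first enzyme, averaged 17.1 ± 1.76 CPM over the FSH livers (SD, n = 5) and 20.5 ± 5.60 CPM over the saline livers (SD, n = 6) (log2 difference -0.22, adjusted p = 0.444, limma). Clpp, the protease partner of CLPX, was at 59.2 ± 5.43 and 62.9 ± 7.30 CPM (log2 difference -0.08, adjusted p = 0.649, limma). Lonp1, a matrix protease that also degrades ALAS1, was at 150.7 ± 17.5 and 154.5 ± 13.1 CPM (log2 difference -0.04, adjusted p = 0.843, limma). Of the 4 tested genes of this list, 0 were called.

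Around the pathway, 27 of the 87 tested genes of 6 lists passed an adjusted p under 0.05, 15 higher and 12 lower with FSH, which is 31.0% against 10.6% of all genes tested. The lists were written with earlier results of these data known and include clock genes known to differ, so the share is not independent evidence. Of 17 genes for the transport of heme, porphyrins and mitochondrial iron, 3 rose and 1 fell, with a median log2 difference of 0.104. Slc25a37 (mitoferrin 1), which brings iron into the mitochondrion, was at 33.9, 40.9, 33.6, 34.4 and 30.3 CPM with FSH and at 24.9, 27.3, 23.3, 21.7, 23.3 and 23.8 CPM with saline, with every FSH liver above every saline liver (log2 difference 0.51, SE 0.09, adjusted p = 0.00268, limma). Tmem14c, needed for porphyrin transport in the mitochondrion, rose from 120.7 ± 8.31 CPM (SD, n = 6) to 170.1 ± 13.6 CPM (SD, n = 5), again without overlap (log2 difference 0.49, SE 0.08, adjusted p = 0.00138, limma). Pgrmc2, a heme chaperone, also rose (log2 difference 0.41, adjusted p = 0.0282, limma), with FSH mouse 6 inside the saline range. Flvcr2, a transporter at the cell surface, fell from 5.34 ± 1.42 to 2.95 ± 0.38 CPM (log2 difference -0.73, adjusted p = 0.0123, limma).

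Of 10 genes of heme breakdown and scavenging, 1 rose and 2 fell, with a median of -0.155. Hmox2, the constitutive heme oxygenase, was at 43.7, 42.3, 40.3, 44.0 and 41.9 CPM with FSH and at 59.9, 56.2, 48.5, 70.5, 47.8 and 55.2 CPM with saline. Every FSH liver lay under every saline liver (log2 difference -0.39, SE 0.10, adjusted p = 0.0200, limma), whereas Hmox1 overlapped. Whether the 2 oxygenases differed in their response was not tested. Blvra, which reduces biliverdin to bilirubin, rose from 12.3 ± 1.09 to 16.4 ± 2.06 CPM (log2 difference 0.40, SE 0.10, adjusted p = 0.0247, limma). Hp, which encodes haptoglobin, the plasma carrier of free hemoglobin, fell from 4617 ± 566 to 2935 ± 521 CPM (log2 difference -0.66, SE 0.13, adjusted p = 0.00386, limma). The call for Hmox2 was lost without FSH mouse 3 (adjusted p = 0.0526, limma) and that for Blvra without FSH mouse 1, 3 or 4 or saline mouse 2 (adjusted p = 0.0503 to 0.0706, limma).

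Among 24 genes listed as regulators of Alas1 or Hmox1, 4 rose and 4 fell. The clock genes gave 7 of these 8 calls, and the fall of Hnf4a (log2 difference -0.44, adjusted p = 0.0369, limma) was the other. Npas2, an activator that binds E-boxes and regulates Alas1, was at 0.1005 CPM in FSH mouse 1 and at 0 in the other FSH livers, against 7.14, 5.24, 5.25, 4.64, 6.48 and 6.72 CPM in saline mice 1 to 6. Arntl (BMAL1) fell from 18.1 ± 3.43 to 3.33 ± 1.31 CPM (log2 difference -2.33) and Clock fell by 0.99 on the log2 scale. Nr1d1 and Nr1d2, which encode the heme-binding repressors REV-ERB alpha and beta, rose from 4.58 ± 2.14 to 14.5 ± 4.16 CPM (log2 difference 1.64, adjusted p = 0.00231, limma) and from 12.3 ± 3.43 to 52.0 ± 11.9 CPM (log2 difference 2.06, adjusted p = 2.15e-05, limma). The D-box activators Dbp (log2 difference 4.02) and Tef (1.08) rose as well. The hour at which livers were collected is not given in the sources used here, and the part of clock phase in the Clpx and Alas1 levels was not tested. Foxo1 and Ppargc1a, regulators of Alas1 in fasting, did not pass the test, with Foxo1 at 48.2 ± 15.3 and 67.4 ± 23.1 CPM (log2 difference -0.45, adjusted p = 0.239, limma) and Ppargc1a at 8.85 ± 1.42 and 10.97 ± 3.13 CPM (log2 difference -0.27, adjusted p = 0.337, limma). The Hmox1 regulators Bach1 (log2 difference 0.18, adjusted p = 0.532, limma) and Nfe2l2, which encodes NRF2 (0.20, adjusted p = 0.390), did not either. Nrf1, the gene of NRF1, was at 6.99 ± 0.42 CPM with FSH and 7.19 ± 1.17 CPM with saline (log2 difference -0.02, adjusted p = 0.930, limma).

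**Figure D3:**
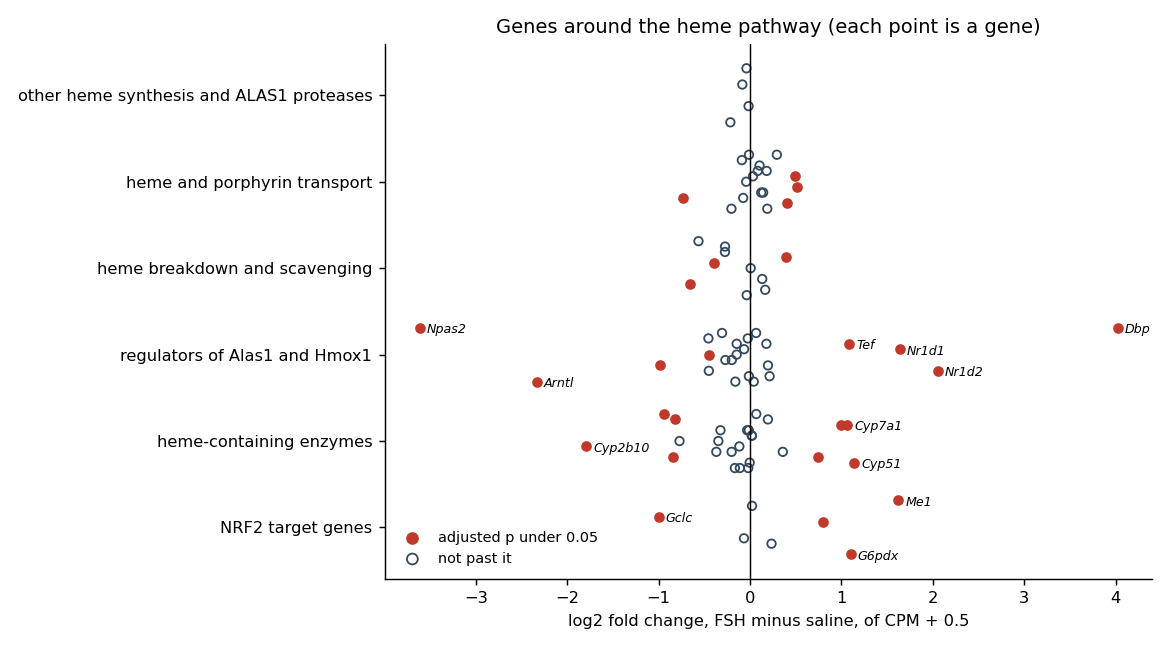
Log2 difference between FSH and saline livers (horizontal axis, scale of log2(CPM + 0.5)) of each tested gene in 6 lists around the heme pathway, with red filled points for an adjusted p under 0.05 and open points for the rest. The called genes past a log2 difference of 1 in size are named, and Dbp at 4.02 and Npas2, which is at or near 0 CPM in the FSH livers, lie farthest out.

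Of 25 enzymes that contain heme, 4 rose and 4 fell past the test, and the median log2 difference of the 25 was -0.0311, with 9 log2 differences above and 16 below 0. Cyp2b10, a xenobiotic hydroxylase, was at 9.49, 9.37, 12.3, 12.3 and 18.8 CPM with FSH and at 43.1, 98.0, 31.5, 72.4, 20.1 and 32.7 CPM with saline (log2 difference -1.79, SE 0.33, adjusted p = 0.00285, limma). The groups did not overlap, although saline mouse 5 was close to FSH mouse 6. Cyp3a11, Cyp4a10 and Cyp2f2 also fell, by 0.84, 0.82 and 0.94 on the log2 scale. Cyp7a1, the rate-limiting enzyme of bile acid synthesis, rose from 49.2 ± 15.7 to 102 ± 29.2 CPM (log2 difference 1.06, adjusted p = 0.00884, limma). Cyp51, of cholesterol synthesis, rose from 126 ± 40.8 to 290.5 ± 117.7 CPM (log2 difference 1.14, adjusted p = 0.0219, limma), with FSH mouse 6 inside the saline range. Its call was lost without FSH mouse 1, 2 or 3 (adjusted p = 0.0505 to 0.0671, limma). Cyp2a5 (log2 difference 1.00) and Cyp17a1 (0.75) were the other 2 that rose. Several of these belong to families of near-identical genes, and how reads were shared among copies can alter their values.

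Of 8 targets of NRF2, the factor that also induces Hmox1, 7 were tested (Slc7a11 was too low), 3 rose and 1 fell. Me1 rose from 222 ± 74.9 to 688.5 ± 223 CPM (log2 difference 1.62, adjusted p = 0.000755, limma) and G6pdx from 6.28 ± 1.98 to 15.3 ± 8.25 CPM (log2 difference 1.10, adjusted p = 0.0282, limma). The call for G6pdx was lost without FSH mouse 1, 2 or 3 or saline mouse 3, 4 or 6 (adjusted p = 0.0510 to 0.0762, limma), and also with all livers kept when no filter on low values was used (adjusted p = 0.0599, limma). Both enzymes make NADPH, which lipid synthesis uses as well. Nqo1, a quinone reductase, rose by a log2 difference of 0.80. Gclc, the catalytic subunit of the first enzyme of glutathione synthesis, fell from 333.5 ± 89.0 to 163 ± 22.1 CPM (adjusted p = 0.00130, limma). The genes of this list thus moved in opposite directions while Hmox1 overlapped between the groups.

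The genes whose pattern over the 11 livers was closest to that of Alas1, by the mean absolute difference of centered log2(CPM + 0.5), were Usp2 (0.266), Fmo2 (0.274), Por (0.292), Noct (0.293) and Mfsd2a (0.299). Por encodes the reductase that passes electrons to cytochromes P450 and to heme oxygenase. It was lowest in saline mice 5, 6 and 1, at 225, 270 and 309 CPM, and highest in FSH mouse 6, at 781 CPM, whereas Alas1 in saline mouse 1 was among the higher controls. Usp2 was at 12.3 and 17.3 CPM in saline mice 5 and 6 and at 34.1 to 74.5 CPM in the other saline livers. Among the 5 nearest to Clpx were Gldc (0.197), Nfil3 (0.222), Ppp1r3c (0.227) and Slc30a10 (0.240). Gldc, of glycine breakdown, averaged 66.4 ± 5.13 CPM over the FSH livers (SD, n = 5) and 189.7 ± 28.2 CPM over the saline livers (SD, n = 6), and Nfil3, a repressor that binds the D-box, was at 21.8 ± 7.50 and 68.8 ± 11.6 CPM. These likenesses were picked from all named protein-coding genes and carry no test. In these 4 genes near Clpx the FSH livers lay below every saline liver, and in all 5 genes near Alas1 the lowest livers were saline mice 5 and 6.

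**Figure D4:**
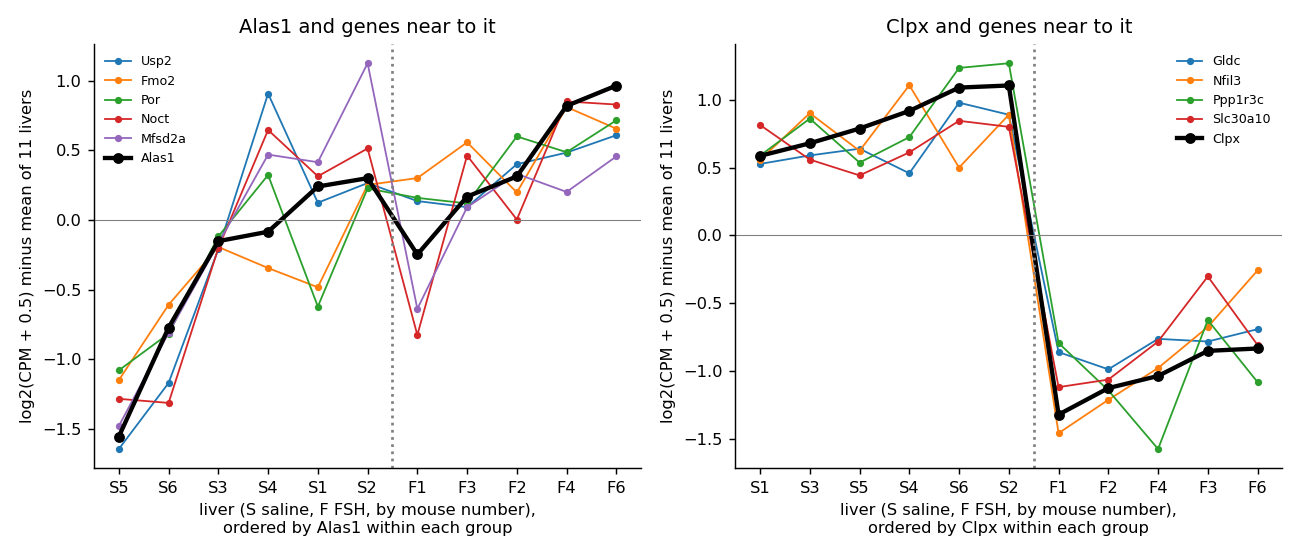
Log2(CPM + 0.5) minus the mean of the 11 livers (vertical axes) for Alas1 (left, black) and Clpx (right, black) with the genes named beside each, over the saline (S) and FSH (F) livers ordered within each group by the gene in black. Clpx and its neighbors drop between the groups at the dotted line, while Alas1 and its neighbors are lowest in saline mice 5 and 6, where Alas1 reads 114.4 and 197.0 CPM.

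The livers carried their defining hepatocyte markers in both groups, with a summed level of 95758.5 to 114814 CPM with FSH and 88399 to 114996 CPM with saline. Of these 6 markers 1 was called, Ass1, of the urea cycle, which was higher with FSH (3790 ± 123 against 2572 ± 592 CPM, log2 difference 0.59, adjusted p = 0.0112, limma). Red cell precursors also make heme, and 9 of 10 erythroid markers were in the table. Their summed level was 464 to 791 CPM with FSH and 425 to 1010 CPM with saline, and 0 of the 5 tested were called. Pericentral hepatocytes hold much of the P450 content. Their markers summed to 8062 to 11293 CPM with FSH and 8460 to 12181 CPM with saline. Most of that was Cyp2e1, at 6054 to 8529 CPM with FSH and 6861 to 10214 CPM with saline. Of the 7 tested markers 0 were called, and 4 log2 differences were above 0 and 3 below. The periportal sums were 2422 to 4665 CPM with FSH and 3448 to 7281 CPM with saline. Pck1 was the largest part, at 687 to 2900 CPM with FSH and 1434 to 5077 CPM with saline. Of the 6 periportal markers 2 were called, Cyp2f2, which was lower (log2 difference -0.94, adjusted p = 2.27e-05, limma), and Gls2, which was higher (0.74, adjusted p = 0.00123, limma). Of 5 endothelial markers 1 was called, Lyve1, which was lower, and 1 of the 5 log2 differences was above 0. Of 4 cholangiocyte markers 1 was called, Krt7, which was higher, while Sox9 had a log2 difference of -0.50 (adjusted p = 0.0545, limma). Of stellate cell markers 0 of 6 were called. The part of these differences in the levels of the 9 genes was not tested. Libraries held 11410596 to 19909327 reads with FSH and 10801891 to 16077442 reads with saline.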

How the data were processed

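Libraries of 11 livers were built with an NEBNext Ultra kit from RNA that met the study's integrity limit, and paired reads were taken on a HiSeq. The submitters' processing notes name FastQC 0.11.2, cutadapt, Trim Galore 0.3.3, STAR, RSEM and the mm10 build. The annotation and the strand setting are not given in the sources used here. The authors deposited CPM values, which sum to 1000000 in each library, for 36788 Ensembl identifiers, of which 35555 matched a symbol. Dividing each library by its smallest step gave whole reads for 100% of values above 0 (within 0.05 read).

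The 12733 genes averaging 0.5 CPM or more were fitted as log2(CPM + 0.5) in limma 3.58.1 (R 4.3.3, intensity trend) and Benjamini-Hochberg adjustment over all of them. Fold changes on this scale understate those of low genes. The main test was limma on the deposited unit, and edgeR 4.0.16 (quasi-likelihood) and voom on the recovered reads were alternatives, as were a replicate block, array weights, a fit without the trend, and changes of pseudocount, filter and scaling, and each liver was left out in turn. The scripts were tested on simulated data. Libraries of a group differed by more than sampling noise (mean chi-square per gene at least 11.4), so all were kept. A count of 0 allows up to 3 reads, and such floors cover counting error only.

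The 9 genes and all lists were chosen with earlier results of these data known. Named are the 9 genes, the genes of each pathway list past both thresholds (adjusted p under 0.05 and absolute log2 difference over 1, at most 8 by smallest p) or, where none was, the 3 of smallest p, and the 5 genes nearest to Alas1 and to Clpx. Other genes were named after their values were seen, and some items are not reported here. Positions are from GENCODE M21 (GRCm38, the same assembly as mm10) and promoter windows from RefSeq.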

Additional observations from a re-analysis of the deposited data

Results flagged for a closer look

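The values examined formed 60 groups, those of the 9 genes and of 21 pathway genes named by the rule, within each treatment group. Of these, 2 held a liver far from the rest, and chance flags about 5% of groups. The genes nearest to Alas1 and Clpx were not examined in this way. Lonp1, a protease that degrades ALAS1, was at 128.3 CPM in saline mouse 5, the liver with the lowest Alas1, and at 155.4 to 164.0 CPM in the other saline livers. Npas2 was at 0.1005 CPM in FSH mouse 1 and at 0 in the other FSH livers, a difference within the 3 reads that a count of 0 allows.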

How the results depend on the processing

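The log2 difference of Clpx was -1.95 to -1.82 and that of Alas1 0.50 to 0.90 over 22 alternatives, and Alad, Urod, Cpox, Ppox and Fech kept their direction or reached 0.00 in all of them. Uros changed sign in 1 and Hmox1 in 2. Those 2 were the replicate block and the fit without saline mouse 5, which rest on the same livers and give the same estimate. Over all genes, 1350 passed an adjusted p under 0.05 with limma, 804 to 1659 with 1 liver left out (fewest without FSH mouse 1), and 233 when an absolute log2 difference over 1 was also required. edgeR on the recovered reads called 749 higher and 686 lower and voom 843 and 585. Of the pathway genes 27 passed, 20 to 28 with 1 liver left out and 12 with both thresholds. Of 462 values for 21 named genes, 446 kept direction and call, 15 lost the call (Blvra, Cyp51, G6pdx and Hmox2), and Lonp1, never called, was at -0.10 to 0.01 with 1 liver left out. Other called genes, such as Pgrmc2, Hnf4a and Cyp4a10, were not followed in this way. Over all genes, the share of calls that were higher stayed between 52.1% and 62.6%.

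Same-numbered mice of the 2 groups are not tied by the labels. Their deviations from the group means correlated above 0.1 for 2 of 5 numbers, and only number 2 matched its own number best. The replicate block used only numbers present in both groups, so it left out saline mouse 5, the liver lowest in Alas1. With it 1214 genes passed and Alas1 had a log2 difference of 0.50, as in the fit that only left out that liver.

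At least 119 reads lay behind every value of the 9 genes, and 5 and 6 livers set the precision of the group means. Levels are shares of each library's RNA, protein was not measured, and both groups lacked ovaries and ate a high-fat diet. The cause of these changes in calls was not tested.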

Other observations

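The order of livers in Alas1 was set beside that of 9 other genes picked after their values were seen, which were Pck1, Tat, Foxo1, Hnf4a, Ppargc1a, Dbp, Me1, Nr1d1 and Nr1d2. Among the FSH livers Alas1 ran from mouse 6 down through 4, 2 and 3 to 1, and 1 of the 9 genes, Pck1, had that order. Tat ran 6, 4, 3, 2 and 1, Hnf4a 6, 4, 2, 1 and 3, Foxo1 6, 2, 4, 1 and 3, and Ppargc1a 2, 6, 1, 3 and 4. Dbp, Me1, Nr1d1 and Nr1d2 were lowest in FSH mouse 6, where Alas1 was highest. Among the saline livers none of the 9 had the order of Alas1, which was mouse 2, 1, 4, 3, 6 and 5. Pck1 ran 2, 4, 1, 3, 5 and 6 there, and Tat ran 2, 1, 4, 3, 5 and 6. Tat was at 4860 CPM in saline mouse 2 and at 913 and 851 CPM in saline mice 5 and 6. Pck1 was at 5077 CPM in saline mouse 2 and at 2900 CPM in FSH mouse 6. The livers share library and depth across these genes, and no test was made.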
